A study of Mus musculus with 6 samples.

Results

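The 30 interferon-stimulated genes described here are a list of symbols covering transcription factors and a sensor, the IFIT, OAS and Mx families, the ISG15 system, other antiviral genes, guanylate-binding proteins and immunity-related GTPases. All 30 were found by symbol among the 24602 genes of the deposited table. RNA came from the left ventricle of wild-type mice 5 weeks after surgery, either transverse aortic coarctation (TAC, a narrowing of the aorta that loads the left ventricle with pressure; 3 libraries) or a sham operation (Sham; 3 libraries). The sources used here do not give strain, sex, age or the pressure gradient reached, and all 6 samples are labelled as left ventricle with no cell type given. The question was whether these genes differ between pressure-loaded and sham-operated ventricle.

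Interferons are secreted signals of antiviral defence that act through cell-surface receptors, the JAK kinases and the STAT transcription factors. Type I interferon assembles a complex that holds STAT2 and IRF9 on response elements in target promoters, whereas interferon gamma acts mainly at gamma-activated sites and through IRF1. The genes switched on in this way encode nucleic acid sensors, antiviral effectors and GTPases, and in the injured heart they are best known from infarction and myocarditis, where leukocytes and resident heart cells both express them.

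None of the 17 genes among these 30 with a mean of 1 FPKM or more (FPKM, fragments per kilobase of transcript scaled to library depth) passed the test, and their log2 fold changes pointed in both directions. Of these 17 genes, 0 were called higher and 0 lower in TAC by edgeR (quasi-likelihood test, adjusted by Benjamini-Hochberg to a threshold of 0.05), against 6.99% of all 8795 tested genes called in either direction. At an unadjusted p under 0.05, Ifit3 and Gbp2 were higher and Irf9 and Usp18 lower, 4 of 17 against 28.1% of all tested genes. The median log2 fold change, TAC over Sham, was 0.049 over the 17 genes and -0.0086 over all tested genes. The 17 genes include Irgm1, which reached 1 FPKM only through the TAC libraries. DESeq2 called 3 of the 17, Ifit3 and Gbp2 higher and Irf9 lower, against 18.8% of all genes to which it gave an adjusted p. In whole tissue, fewer cells of a type and less RNA per cell cannot be told apart.

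The other 13 genes had means under 1 FPKM. When the filter was lowered to a mean of 0.1 FPKM, 28 of the 30 were tested, all but Mx1 and Ifi44. In that fit Rsad2 and Gbp4 rose, which is 2 of 28 against 2.76% of 15003 genes called higher, and 0 of 28 fell. Gbp4 and Ifih1 reached 0.1 FPKM only through the TAC libraries, with Sham means of 0.0617 and 0.0891 FPKM. At an unadjusted p under 0.05, 7 were higher and 3 lower, 10 of 28 against 27.4% of all genes, and the median log2 fold change was 0.30 against 0.011. DESeq2 at this filter called 5 higher (Ifit2, Ifit3, Rsad2, Gbp2 and Gbp4) and 2 lower (Irf9 and Usp18), 7 of 28 against 17.5% of all genes to which it gave an adjusted p. The lower filter also shifted the scaling: the log2 fold changes of the 8795 genes tested at 1 FPKM moved by -0.10, so directions of genes with small changes depend on it.

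The levels per transcript length spanned a wide range. Bst2, which encodes the virus-tethering membrane protein tetherin, was the most abundant at a mean of 20.0 FPKM over the 6 libraries, followed by Irf7 at 12.0, Irf1 at 7.38, Igtp at 6.58 and Isg15 at 5.29 FPKM. At the other end Mx1 had a mean of 0.0808 and Ifi44 of 0.0843 FPKM. Fold changes and levels per library are given below as CPM, the deposited estimated counts relative to library size after edgeR's TMM scaling, in the order of replicates 1, 2 and 3. All CPM use the TMM factors of the 1 FPKM fit, also for genes tested at the lower filter.

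Promoters were read for the sequence that the type I interferon complex is known to bind. RefSeq windows on GRCm38.p6, each from 250 bases before to 50 bases after a transcript start, were found for 22 of the 30 genes. The core of the interferon-stimulated response element, GAAANNGAA, was searched on both strands and occurred in 15 of the 22 genes (68.2%), against 9.76% of 27025 genes with a window. The gamma-activated site TTCNNNGAA occurred in 6 of the 22 (27.3%), against 9.55% of all genes, and overlapped a core in Bst2. Overlapping copies of the core were present in Bst2, Gbp3, Ifit1, Irgm1, Isg15 and Oas1a. No core lay in the windows of Irf1, Irf7, Irf9, Ifit2, Oasl2, Xaf1 and Ifi47. The windows of 4 genes with a core, and 1 of the 2 windows of Irf9 without one, are shown on the strand of the gene with the core or its reverse complement in capitals. They were chosen to set Ifit3, Gbp2 and Rsad2, which had higher values in TAC, beside Isg15, which overlapped between groups, and Irf9, which had lower values in TAC.
Ifit3 (chr19:34583279-34583578, plus strand): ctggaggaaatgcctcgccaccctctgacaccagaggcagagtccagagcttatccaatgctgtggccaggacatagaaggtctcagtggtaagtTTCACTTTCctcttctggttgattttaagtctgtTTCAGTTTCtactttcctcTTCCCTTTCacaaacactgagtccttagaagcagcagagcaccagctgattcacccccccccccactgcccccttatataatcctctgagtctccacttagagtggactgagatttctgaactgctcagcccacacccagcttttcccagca
Gbp2 (chr3:142620413-142620712, plus strand): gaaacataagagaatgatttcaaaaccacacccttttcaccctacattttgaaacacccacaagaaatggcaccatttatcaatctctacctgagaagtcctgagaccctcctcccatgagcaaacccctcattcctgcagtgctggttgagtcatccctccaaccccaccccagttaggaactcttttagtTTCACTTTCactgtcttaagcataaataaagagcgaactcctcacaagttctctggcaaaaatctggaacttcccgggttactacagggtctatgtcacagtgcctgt
Rsad2 (chr12:26456403-26456702, minus strand): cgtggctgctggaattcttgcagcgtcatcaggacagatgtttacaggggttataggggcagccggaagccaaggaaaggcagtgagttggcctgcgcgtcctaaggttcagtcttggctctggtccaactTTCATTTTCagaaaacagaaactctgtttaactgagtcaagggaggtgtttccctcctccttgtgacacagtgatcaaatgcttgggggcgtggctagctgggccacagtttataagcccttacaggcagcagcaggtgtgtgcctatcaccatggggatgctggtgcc
Isg15 (chr4:156200769-156201068, minus strand): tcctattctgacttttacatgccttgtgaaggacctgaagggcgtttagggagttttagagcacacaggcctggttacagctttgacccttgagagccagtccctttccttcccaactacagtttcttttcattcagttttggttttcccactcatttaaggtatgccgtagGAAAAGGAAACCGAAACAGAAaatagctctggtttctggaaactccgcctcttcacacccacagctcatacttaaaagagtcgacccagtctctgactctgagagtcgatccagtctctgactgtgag
Irf9 (chr14:55603735-55604034, plus strand): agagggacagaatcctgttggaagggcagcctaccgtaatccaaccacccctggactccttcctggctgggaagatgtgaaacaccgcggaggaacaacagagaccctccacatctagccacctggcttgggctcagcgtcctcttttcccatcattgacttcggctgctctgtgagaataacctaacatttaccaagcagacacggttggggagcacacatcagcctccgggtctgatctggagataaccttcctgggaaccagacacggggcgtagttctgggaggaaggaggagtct

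Counted from 1 at the 5′ end of the window, where the start site is base 251, the Ifit3 window held 3 separate cores beginning at positions 96, 130 and 149. In the Isg15 window 3 copies overlapped, beginning at positions 173, 179 and 185, and a single core began at position 132 for Rsad2 and at 193 for Gbp2. The Gbp2 record of the deposited table begins inside its window, at base 142620602, so this core lies just within the gene as counted. Both Irf9 windows lie wholly inside the Irf9 record, which begins at base 55603571, so no sequence before that record was searched. Among the 14 genes with a core that were tested at 0.1 FPKM, 10 had a positive and 4 a negative log2 fold change, with a median of 0.69. They include Ifih1, which reached 0.1 FPKM only through the TAC libraries. Of the 7 genes with no core in their windows, 3 were positive and 4 negative, with a median of -0.044. The ranges overlapped, at -0.43 to 1.27 with a core and -0.72 to 1.40 without. Of all 15003 genes tested at this filter, 7618 were positive and 7385 negative, with a median of 0.011. Whether the core and the fold change are linked was not tested. A match is a description of these letters and not evidence of binding.

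Of the transcription factors, Irf9, Irf7 and Stat2 had lower means in TAC, and Irf1 did not. Irf9 (chr14:55603571-55610030), the DNA-binding subunit of the complex that type I interferon assembles, had 20.1, 21.5 and 21.8 CPM in TAC libraries, against 35.7, 36.3 and 25.4 CPM in Sham libraries. Every TAC value was below every Sham value, and the 3 TAC values lay within 2 CPM of each other. Its log2 fold change was -0.62 ± 0.17 (SE; edgeR adjusted p = 0.0655), and the adjusted p was 0.0135 in DESeq2 and 0.0402 in edgeR without TAC replicate 3. It did not pass under the other alternatives tried at 1 FPKM, with adjusted p up to 0.236, without Sham replicate 2. Irf7 (chr7:141262706-141266481), which drives the type I interferon genes themselves, had 33.5, 39.3 and 39.4 CPM in TAC libraries, against 70.7, 66.7 and 32.0 CPM in Sham libraries. Sham replicates 1 and 2 stood at about the same high level, and Sham replicate 3 lay below all TAC libraries. Its log2 fold change was -0.59 ± 0.27 (SE; edgeR adjusted p = 0.200).

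Stat2, the STAT protein that joins IRF9 in that complex, had 11.3, 10.2 and 15.5 CPM in TAC libraries, against 18.7, 14.4 and 13.5 CPM in Sham libraries. The groups overlapped, and the log2 fold change of -0.33 ± 0.21 (SE) did not pass (edgeR adjusted p = 0.350). Irf1, a factor induced by interferon gamma, had 35.1, 35.6 and 30.7 CPM in TAC libraries, against 28.8, 26.8 and 29.1 CPM in Sham libraries. All TAC values were above all Sham values, by a small margin, with a log2 fold change of 0.26 ± 0.13 (SE; edgeR adjusted p = 0.244). Ifih1, which encodes the cytosolic double-stranded RNA sensor MDA5, had 1.496, 1.36 and 1.31 CPM in TAC libraries, against 1.35, 0.535 and 0.316 CPM in Sham libraries. Here Sham replicate 1 matched the TAC libraries and the other Sham libraries were lower. Its mean was 0.153 FPKM in TAC libraries and 0.0891 FPKM in Sham libraries, so Ifih1 passed the lower filter only through TAC.

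Upstream of these factors, 20 receptor and signalling genes and 23 nucleic acid sensor and adaptor genes were listed. Of the 15 receptor and signalling genes tested at 1 FPKM, 1 rose and 0 fell, with 2 higher and 1 lower both at an unadjusted p under 0.05 and in DESeq2. Over all genes the edgeR, unadjusted and DESeq2 shares in either direction were 6.99%, 28.1% and 18.8%. The gene that rose was Ifngr1, the ligand-binding chain of the interferon gamma receptor, with 36.1, 34.2 and 37.2 CPM in TAC libraries, against 25.9, 21.3 and 25.5 CPM in Sham libraries. The groups were well apart, with a log2 fold change of 0.57 ± 0.14 (SE) and an edgeR adjusted p of 0.0498, which became 0.0542 after removal of trends in GC content and transcript length and 0.0800 at the lower filter. No gene of the list was called higher in limma, with the replicate block, or without any 1 library other than TAC replicate 3. Over all 8795 genes, 813 were called higher without TAC replicate 3 and 9 to 295 without any other 1 library. The most abundant genes of this list, the second receptor chain Ifngr2 and the shared receptor chain Il10rb, had log2 fold changes of -0.63 ± 0.22 and -0.26 ± 0.22 (SE; edgeR adjusted p = 0.109 and 0.489).

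Of the 13 sensor and adaptor genes tested at 1 FPKM, 0 rose and 1 fell, with 0 higher and 2 lower both at an unadjusted p under 0.05 and in DESeq2. The edgeR, unadjusted and DESeq2 shares of all genes were again 6.99%, 28.1% and 18.8%. The gene that fell was Mavs, the mitochondrial adaptor through which MDA5 and RIG-I signal and the most abundant gene of the list at 26.7 FPKM. It had 75.2, 77.9 and 73.9 CPM in TAC libraries, against 100.4, 117 and 112 CPM in Sham libraries. The TAC values lay within 4 CPM of each other and all were below the Sham values, with a log2 fold change of -0.54 ± 0.12 (SE; edgeR adjusted p = 0.0409). With trends in GC content and transcript length taken out of each library, the log2 fold change was -0.37 and the adjusted p 0.0740. No sensor or adaptor gene was called lower with upper-quartile scaling, with no filter, with the replicate block, or without any 1 library other than TAC replicate 3, and without that library 2 were. Over all 8795 genes, 892 were called lower without TAC replicate 3 and 3 to 66 without any other 1 library. Unc93b1, a chaperone of the endosomal Toll-like receptors and the next most abundant at 9.84 FPKM, had a log2 fold change of 0.042 ± 0.19 (SE; edgeR adjusted p = 0.912). The 14 interferon ligand genes on the list were not analysed here.

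The IFIT genes, whose products bind foreign RNA and block its translation, had higher means in TAC. Ifit3 (chr19:34583531-34588731) had 5.60, 5.18 and 7.88 CPM in TAC libraries, against 4.25, 2.10 and 2.002 CPM in Sham libraries. Its groups did not overlap, although Sham replicate 1 came near the lowest TAC library, and the log2 fold change was 1.16 ± 0.33 (SE; edgeR adjusted p = 0.0699). Without Sham replicate 1 it was 1.62 with an adjusted p of 0.0392, and in DESeq2 the adjusted p was 0.00932. No other alternative at 1 FPKM called it, with adjusted p up to 0.249, without Sham replicate 2. Ifit2 had 3.44, 1.92 and 4.18 CPM in TAC libraries, against 1.901, 0.535 and 0.948 CPM in Sham libraries. TAC replicate 2 and Sham replicate 1 nearly touched, and the log2 fold change at the lower filter was 1.40 ± 0.46 (SE; edgeR adjusted p = 0.0959). Ifit1 had 1.58, 1.44 and 2.31 CPM in TAC libraries, against 1.901, 0.338 and 0.346 CPM in Sham libraries, so that Sham replicate 1 alone placed the groups in overlap.

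The OAS genes, which encode enzymes that make oligoadenylates to activate RNase L, showed no such separation. Oas1a had 8.85, 10.5 and 6.96 CPM in TAC libraries, against 8.97, 7.63 and 5.89 CPM in Sham libraries (edgeR log2 fold change 0.22 ± 0.23 SE, adjusted p = 0.569). Oas2 and the related Oasl2 had log2 fold changes of -0.17 ± 0.27 and 0.049 ± 0.19 (SE; edgeR adjusted p = 0.742 and 0.897). All 3 overlapped between groups, and the sign for Oasl2 turned negative, at -0.044, under the lower filter. The Mx genes, dynamin-like GTPases that block virus replication, had low counts. Mx2 had 1.07, 0.515 and 0.553 CPM in TAC libraries, against 0.936, 1.03 and 0.662 CPM in Sham libraries (lower-filter edgeR log2 fold change -0.40 ± 0.43 SE, adjusted p = 0.588). Mx1 had estimated counts of 0, 25 and 47 in TAC libraries, against 29, 11 and 24 in Sham libraries, with no test at either filter.

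In the ISG15 system, Usp18 had lower values in TAC and the other genes overlapped. Isg15, a ubiquitin-like protein that is attached to other proteins, had 3.99, 5.48 and 3.31 CPM in TAC libraries, against 4.29, 4.45 and 2.12 CPM in Sham libraries (edgeR log2 fold change 0.23 ± 0.33 SE, adjusted p = 0.692). Usp18, the protease that removes ISG15 and also restrains signalling at the type I receptor, had 5.26, 4.71 and 5.505 CPM in TAC libraries, against 9.62, 6.32 and 6.65 CPM in Sham libraries. All 3 TAC values were below the Sham values, with Sham replicate 1 the highest, and the log2 fold change was -0.55 ± 0.22 (SE; edgeR adjusted p = 0.145). Trim25, a ubiquitin ligase that acts on RIG-I, had 13.4, 12.9 and 19.3 CPM in TAC libraries, against 15.9, 13.5 and 13.5 CPM in Sham libraries. Its log2 fold change was 0.091 ± 0.19 (SE; edgeR adjusted p = 0.802), and -0.010 under the lower filter.

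Among the other antiviral genes, Rsad2 stood out at the lower filter. Rsad2 (chr12:26442746-26456452) encodes viperin, an enzyme that makes a chain-terminating nucleotide. It had 4.09, 5.10 and 3.55 CPM in TAC libraries, against 2.002, 1.69 and 1.28 CPM in Sham libraries. The lowest TAC library lay well above the highest Sham library, and the log2 fold change was 1.27 ± 0.27 (SE; edgeR adjusted p = 0.0385). With the GC and length trends removed it was 0.91 with an adjusted p of 0.131. Without TAC replicate 1, TAC replicate 2, Sham replicate 1, Sham replicate 2 or Sham replicate 3 the adjusted p was 0.122, 0.0936, 0.0567, 0.159 and 0.115, and without TAC replicate 3 it was 0.0158.

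Parp14, an ADP-ribosyltransferase, had 8.82, 8.68 and 9.68 CPM in TAC libraries, against 7.16, 4.505 and 5.62 CPM in Sham libraries, with no overlap (log2 fold change at the lower filter 0.56 ± 0.20, SE; edgeR adjusted p = 0.124). Bst2 (chr8:71534255-71537456) had 19.7, 23.9 and 14.1 CPM in TAC libraries, against 22.5, 21.3 and 13.0 CPM in Sham libraries. Both groups had 2 high libraries and a low replicate 3, and the log2 fold change was 0.022 ± 0.26 (SE; edgeR adjusted p = 0.967), or -0.069 under the lower filter. Xaf1, a partner of the apoptosis inhibitor XIAP, had a log2 fold change of -0.10 ± 0.20 and Rtp4, a receptor transporter protein, one of 0.52 ± 0.29 (SE; edgeR adjusted p = 0.777 and 0.286). Ifi44 had 0.464, 0.655 and 0.941 CPM in TAC libraries, against 0.720, 0.366 and 0.181 CPM in Sham libraries, which overlap.

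The guanylate-binding proteins, large GTPases induced mainly by interferon gamma that attack pathogen vacuoles, had positive log2 fold changes at the lower filter in 4 of 4 genes, and in 3 of them the groups did not overlap. Of all tested genes 21.4% were likewise higher with no overlap, and of those with a transcript GC content below 48.2%, where all 4 lie, 78.6% were positive. Gbp2 (chr3:142620602-142638008) had 9.765, 12.4 and 13.3 CPM in TAC libraries, against 8.55, 3.56 and 5.78 CPM in Sham libraries. TAC replicate 1 and Sham replicate 1 were close, and the log2 fold change was 0.99 ± 0.31 (SE; edgeR adjusted p = 0.0833). Without Sham replicate 1 it was 1.36 with an adjusted p of 0.0451, and in DESeq2 the adjusted p was 0.0157. The remaining alternatives at 1 FPKM did not call it, with adjusted p up to 0.217, without Sham replicate 2.

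Gbp4 (chr5:105115767-105139586) had 1.48, 1.61 and 1.66 CPM in TAC libraries, against 0.590, 0.338 and 0.482 CPM in Sham libraries. These rest on 86, 103 and 120 estimated counts in TAC libraries, against 41, 24 and 32 in Sham libraries. Its mean was 0.189 FPKM in TAC libraries and 0.0617 FPKM in Sham libraries, so it passed the lower filter only through TAC. The groups were well apart, with a log2 fold change of 1.65 ± 0.35 (SE; edgeR adjusted p = 0.0385). It was 1.21 with an adjusted p of 0.0769 after removal of the GC and length trends. Without TAC replicate 1, TAC replicate 2, Sham replicate 1, Sham replicate 2 or Sham replicate 3 the adjusted p was 0.122, 0.0839, 0.0547, 0.159 and 0.107, and without TAC replicate 3 it was 0.0331. Gbp3 had 1.25, 1.05 and 1.76 CPM in TAC libraries, against 0.634, 0.662 and 0.632 CPM in Sham libraries. The Sham values were almost equal and all lay below TAC, with a log2 fold change of 0.97 ± 0.35 (SE; edgeR adjusted p = 0.116). Gbp7 had 114, 0 and 122 estimated counts in TAC libraries, against 72, 24 and 42 in Sham libraries. TAC replicate 2 was listed at 0 while its neighbours were not, and 11.3% of the exonic bases of Gbp7 are shared with another record on the same strand, so its counts are uncertain.

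**Figure D1:**
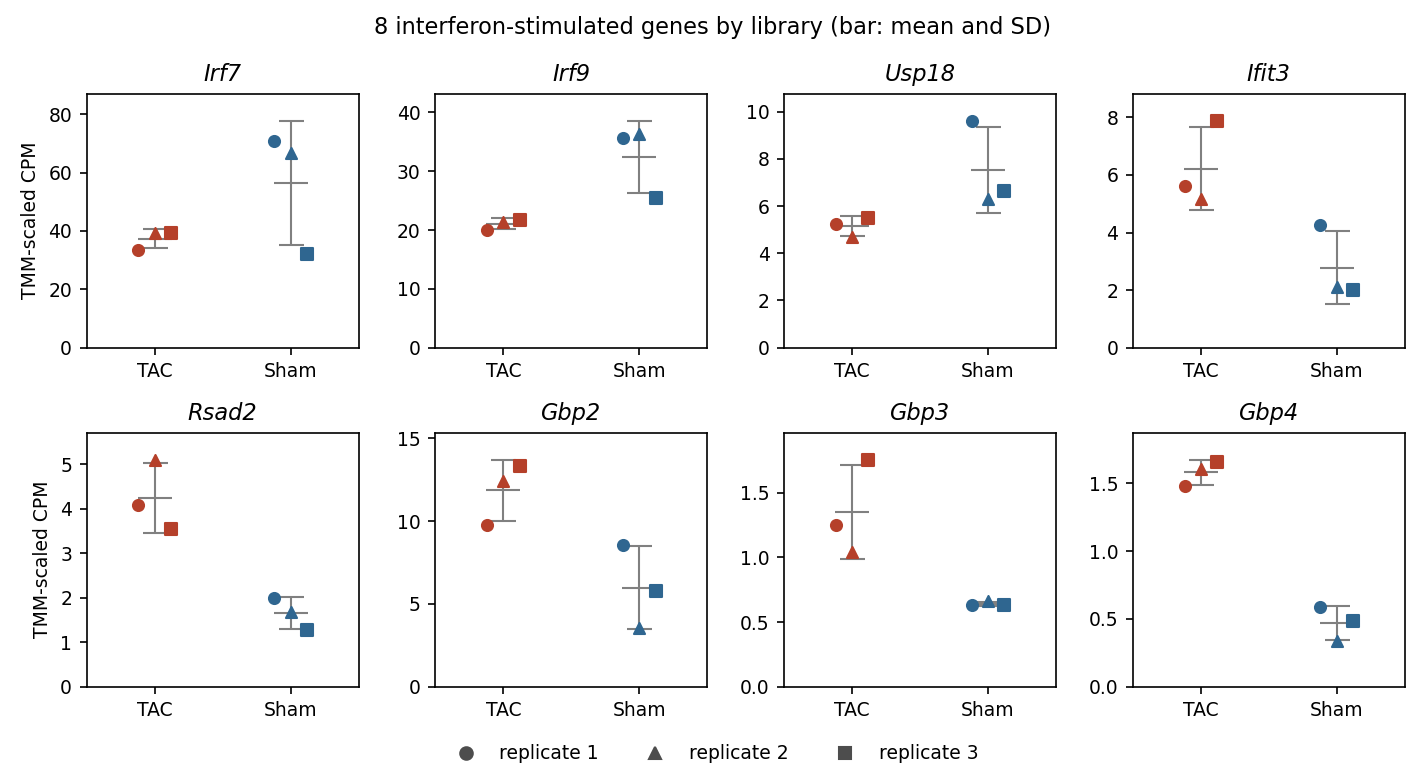
TMM-scaled CPM (y axis, starting at 0 and differing between panels) of 8 interferon-stimulated genes in the TAC and Sham libraries, with each library as a point, its replicate number as the symbol and the mean ± SD (n = 3) as bars. For Irf9 the TAC points lie at 20.1 to 21.8 CPM, below all Sham points, and for Gbp4 at 1.48 to 1.66 CPM, above all Sham points. For Ifit3 and Gbp2 the highest Sham point is replicate 1.

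The immunity-related GTPases, the other family of vacuole-attacking GTPases, were mixed. Igtp had 9.80, 13.1 and 16.8 CPM in TAC libraries, against 20.0, 12.9 and 10.7 CPM in Sham libraries (edgeR log2 fold change -0.13 ± 0.28 SE, adjusted p = 0.798). Irgm1, a regulator of the family, had 6.38, 6.23 and 10.4 CPM in TAC libraries, against 6.84, 3.67 and 3.55 CPM in Sham libraries (edgeR log2 fold change 0.71 ± 0.32 SE, adjusted p = 0.193). In both genes TAC replicate 3 was the highest TAC library and Sham replicate 1 the highest Sham library. The mean of Irgm1 was 1.21 FPKM in TAC libraries and 0.801 FPKM in Sham libraries, so it passed the 1 FPKM filter only through TAC. Ifi47 had 2.32, 2.31 and 2.28 CPM in TAC libraries, against 1.70, 1.22 and 1.38 CPM in Sham libraries. The 3 TAC values were almost equal and none overlapped Sham, but the log2 fold change of 0.59 ± 0.26 (SE) did not pass (edgeR adjusted p = 0.183). Iigp1 overlapped between groups, with a log2 fold change of 0.69 ± 0.46 (SE; edgeR adjusted p = 0.364).

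Across all role groups, 9 of the 28 genes tested at 0.1 FPKM had TAC values that were all above the Sham values, against 21.4% of all tested genes. These were Irf1, Ifit2, Ifit3, Rsad2, Parp14, Gbp2, Gbp3, Gbp4 and Ifi47. The values compared are CPM with the TMM factors of the 1 FPKM fit. By deposited FPKM Ifit2 overlapped, at 0.417 FPKM in TAC replicate 2 and 0.474 FPKM in Sham replicate 1. The reverse held for Irf9 and Usp18, 2 of 28 against 11.8% of all tested genes.

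A further 55 interferon-stimulated genes were listed beside the 30. Of the 23 tested at 1 FPKM, 1 rose and 0 fell, with 2 higher and 2 lower both at an unadjusted p under 0.05 and in DESeq2. Over all genes the edgeR, unadjusted and DESeq2 shares in either direction were 6.99%, 28.1% and 18.8%. The gene that rose was Slfn5, a Schlafen family gene, with 11.2, 9.97 and 8.74 CPM in TAC libraries, against 5.80, 4.08 and 4.79 CPM in Sham libraries (edgeR log2 fold change 1.03 ± 0.20 SE, adjusted p = 0.0310). With the GC and length trends removed its adjusted p was 0.0987. No further gene was called higher at 1 FPKM in limma, with the replicate block, or without TAC replicate 1, TAC replicate 2, Sham replicate 2 or Sham replicate 3, and 4 were without TAC replicate 3. Of all 8795 genes, 33, 99, 9 and 30 were called higher without the first of these libraries in that order, and 813 without TAC replicate 3. The most abundant genes of the list, Ifitm3 and Ifitm2, which block virus entry at membranes, had means of 155 and 115 FPKM. Their log2 fold changes were 0.22 ± 0.22 and 0.24 ± 0.12 (SE; edgeR adjusted p = 0.549 and 0.247). Ifi27, a mitochondrial interferon-induced gene picked after its values were seen, had 31.8, 36.9 and 21.8 CPM in TAC libraries, against 44.6, 45.0 and 48.8 CPM in Sham libraries. The groups did not overlap, with a log2 fold change of -0.61 ± 0.20 (SE; edgeR adjusted p = 0.0890), and it fell with the GC and length trends removed (edgeR adjusted p = 0.0341). Of the 55 genes, 16 were higher in TAC with no overlap and 2 lower, against 21.4% and 11.8% of all genes at 0.1 FPKM or above. The 55 include 7 genes with a mean under 0.1 FPKM, which those shares leave out.

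At the lower filter 5 of 48 further genes rose and 0 fell, against 2.76% of all genes called higher: Slfn5, Gbp6, Gbp5, Tgtp1 and Ifit3b. Gbp6 had 5.23, 6.24 and 5.77 CPM in TAC libraries, against 1.89, 1.22 and 1.55 CPM in Sham libraries (edgeR log2 fold change 1.79 ± 0.24 SE, adjusted p = 0.0166). Gbp5 had 2.18, 2.81 and 3.43 CPM in TAC libraries, against 0.778, 0.549 and 1.22 CPM in Sham libraries (edgeR log2 fold change 1.63 ± 0.36 SE, adjusted p = 0.0401). Both are guanylate-binding proteins, and both had TAC values far from the Sham values. With the GC and length trends removed these 2 still rose, at edgeR adjusted p of 0.0265 and 0.0443, which is 2 of 48 against 1.29% of all genes called higher in that fit, while Ifi27 fell (log2 fold change -0.65, edgeR adjusted p = 0.0469). Tgtp1, an immunity-related GTPase, and Ifit3b, a close copy of Ifit3, rose by 1.48 and 1.84 on the log2 scale (edgeR adjusted p = 0.0299 and 0.0387), and with the trends removed the log2 fold changes were 1.05 and 1.54 and did not pass (edgeR adjusted p = 0.0701 and 0.0602). How fragments were divided between Ifit3 and Ifit3b, between Tgtp1 and its copy, and among the Gbp and Oas1 genes is unknown, so values of single copies are uncertain. The same holds for genes that share exonic bases with another record on their strand, 8.01% of Igtp (with Irgm2), 13.9% of Rtp4, 4.49% of Ifi47, 2.28% of Irf9 (with Rnf31), 1.18% of Parp14 and 0.814% of Gbp4 (with Gbp8 and Gbp9).

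The interferon-stimulated genes also differed among the Sham libraries. Of the 28 genes, 22 (78.6%) had their highest Sham value in Sham replicate 1, which was the highest Sham library in 40.4% of all 15003 genes. In 18 of the 28 (64.3%) the lowest Sham value was in Sham replicate 3, against 30.1% of all genes. The median deviation of the 28 genes from their own mean, on the log2 scale, was 0.18, 0.22 and 0.32 in TAC libraries, against 0.24, -0.24 and -0.41 in Sham libraries. By this measure Sham replicate 1 stood with the TAC libraries. Over all genes the same medians were 0.052, 0.036 and 0.13 in TAC libraries, against 0.00070, -0.072 and -0.029 in Sham libraries. Among TAC libraries the pattern was weaker, with TAC replicate 3 the highest for 15 of the 28 genes (53.6%), against 46.6% of all genes. Summed over the 30 genes, FPKM came to 75.4, 85.9 and 87.3 in TAC libraries, against 107, 94.9 and 65.7 in Sham libraries, with Bst2 and Irf7 the largest terms. Without Sham replicate 1 the lower-filter fit called Ifit1 and Ifit3 higher in place of Rsad2 and Gbp4.

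**Figure D2:**
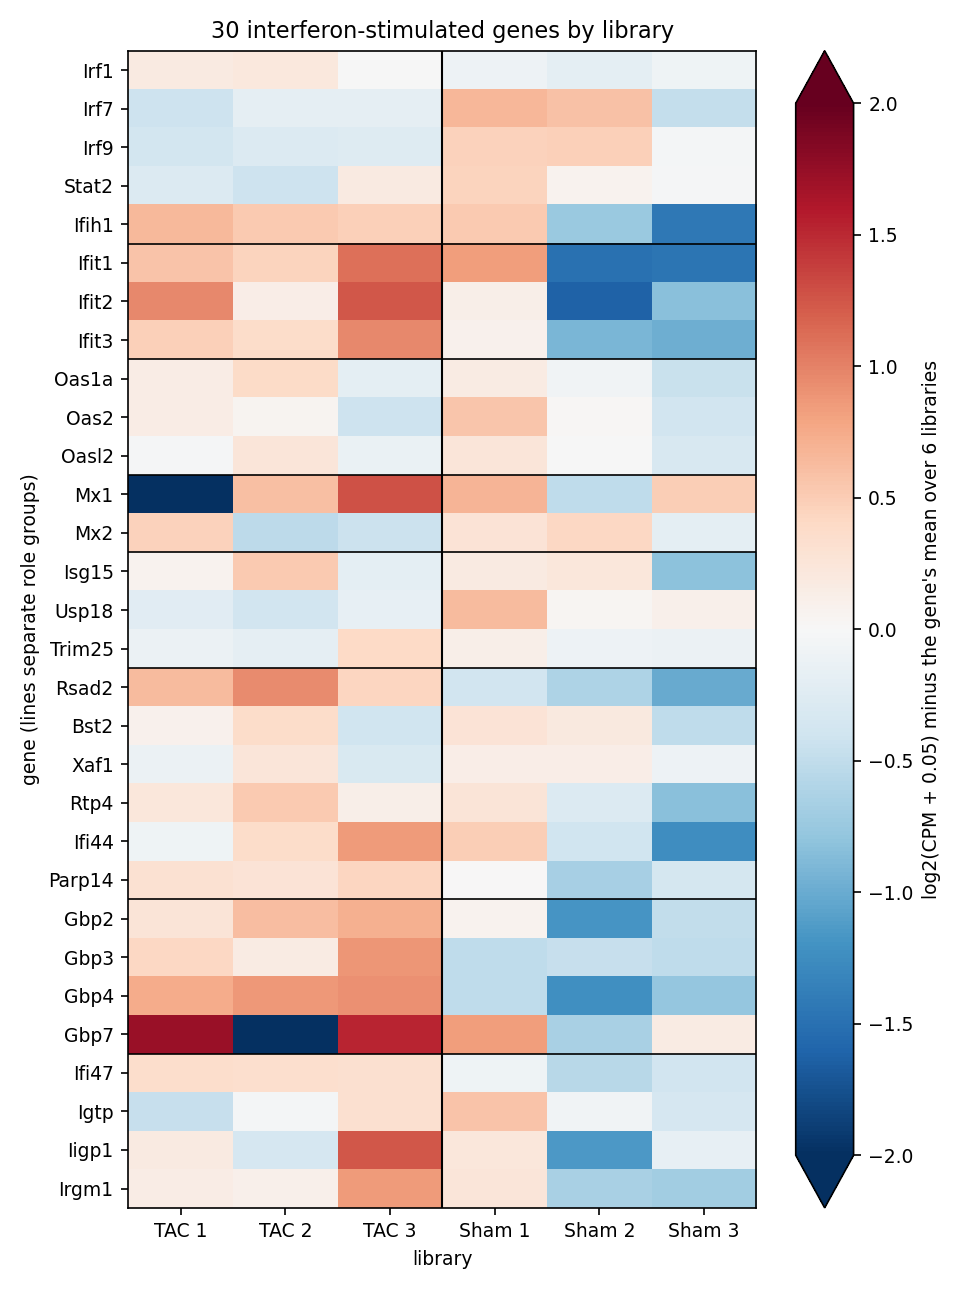
Log2(CPM + 0.05) of each of the 30 genes (rows, by role group) in each library (columns, TAC left of the line and Sham right of it), minus the gene's mean over the 6 libraries. Colours run from -2 to 2, and values of Mx1 in TAC replicate 1 and Gbp7 in TAC replicate 2, both listed at 0, lie beyond the scale. Sham replicate 1 is redder than Sham replicates 2 and 3 in the Ifit, Oas2 and Irgm1 rows.

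Fold changes in these data followed the GC content of the transcript, and the interferon-stimulated genes lay on both sides of that trend. Their GC contents were split at the median of the 28 genes, 48.2%. Below it 13 of 14 genes had positive log2 fold changes at the lower filter, with a median of 0.86, and 78.6% of all genes below it were positive, with a median of 0.44. At or above it 4 of 14 were positive, with a median of -0.15, against 34.7% of all genes and a median of -0.16. The low side held the IFIT genes, Rsad2, Parp14 and the guanylate-binding proteins, and the high side held Irf7, Irf9, Stat2 and Usp18.

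When the trends of fold change with GC content and transcript length were taken out per library, 13 of the 14 genes below 48.2% had positive log2 fold changes, with a median of 0.48, against 52.1% of all genes and a median of 0.028. On the high side 5 of 14 were positive, with a median of -0.089, against 49.2% and -0.0070. In that fit 0 of the 28 genes were called higher or lower by edgeR, with 6 higher and 2 lower at an unadjusted p under 0.05. Of all 15003 genes in the same fit, edgeR called 193 higher and 210 lower, with 1546 higher and 1646 lower at an unadjusted p under 0.05. Below the split 13 of 14 genes were positive in both fits, and their median went from 0.86 to 0.48. These genes include Gbp4 and Ifih1, which reached 0.1 FPKM only through the TAC libraries. Neither Rsad2 nor Gbp4 passed with the trends removed. What GC content contributes to these fold changes was not tested.

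**Figure D3:**
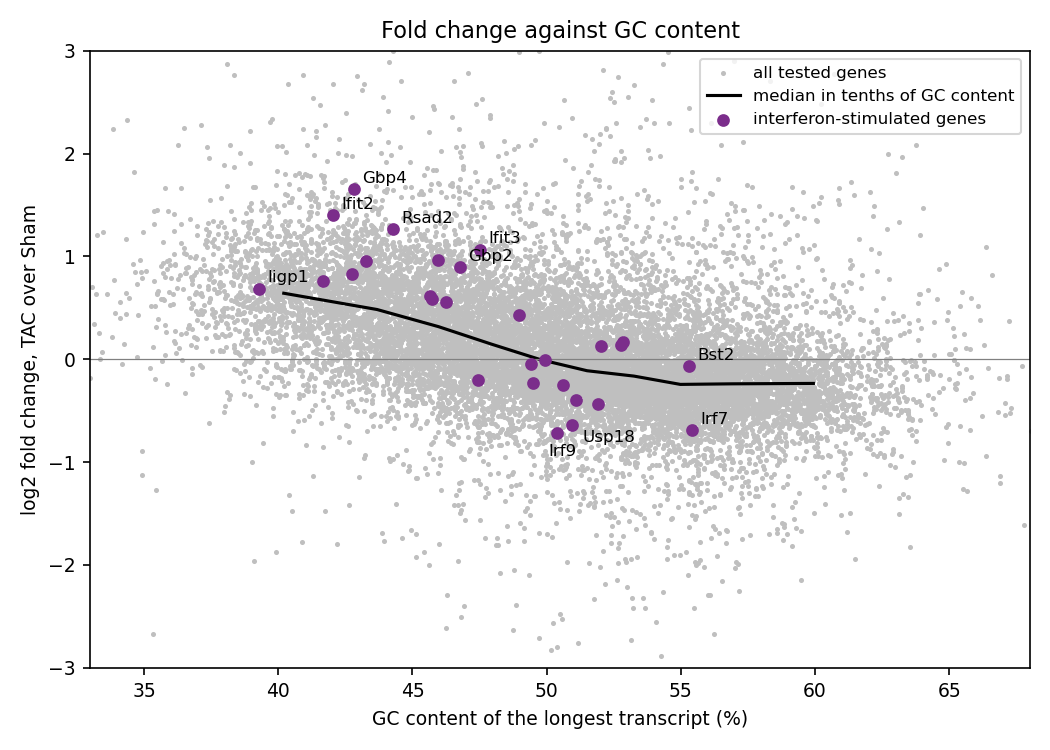
Log2 fold change, TAC over Sham, at the lower filter (y axis) against the GC content of the longest transcript in percent (x axis) for all tested genes (grey; the axes leave out points beyond ±3 or outside the GC range drawn), with the median over 10 bins of GC content as a line and the 28 interferon-stimulated genes in purple. Gbp4, Ifit2 and Rsad2 lie above the line at low GC content, and Irf9, Usp18 and Irf7 below it at high GC content.

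**Figure D4:**
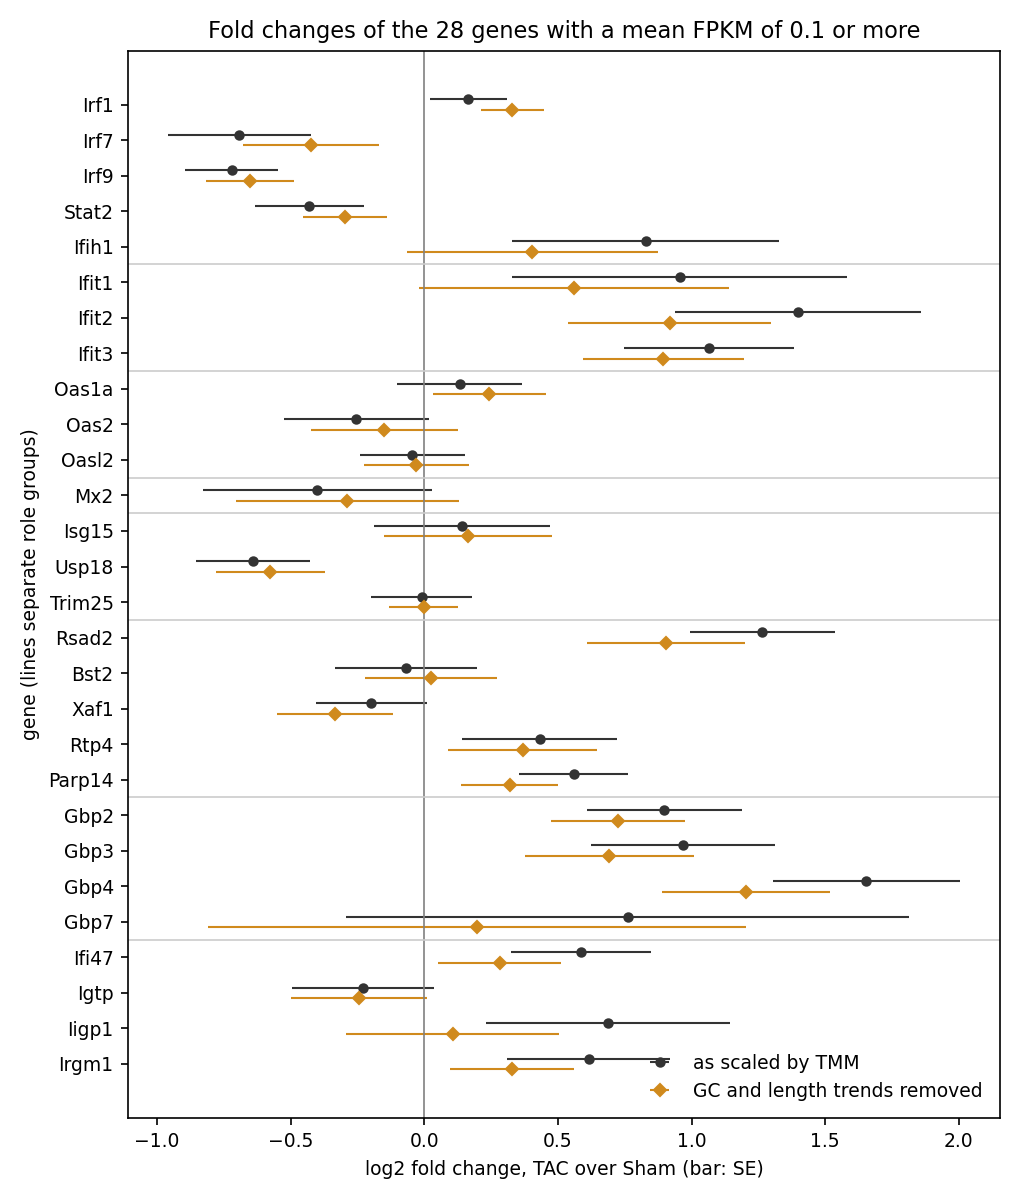
Log2 fold change, TAC over Sham, with its SE (x axis) for the 28 genes by role group (y axis), as scaled by TMM (dark circles) and after removal of GC and length trends (yellow diamonds). Removal of the trends brings Rsad2 to 0.91, Gbp4 to 1.21, and Irf9 to -0.65, against -0.72 before removal.

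Markers of the cells in the tissue were read from the same fits. The 10 ventricular cardiomyocyte markers were abundant in every library, summing to 20656 to 27024 FPKM in TAC libraries and 28250 to 32788 FPKM in Sham libraries, with 0 called at 1 FPKM by edgeR or DESeq2 and 0 at an unadjusted p under 0.05 in edgeR. Atrial markers summed to 18.6 to 96.1 FPKM in TAC libraries and 29.2 to 173 FPKM in Sham libraries. Of 8 macrophage markers tested at 1 FPKM, 0 were called by edgeR and 1 by DESeq2, which was also the count at an unadjusted p under 0.05. The summed levels of all 11 were 329 to 448 FPKM in TAC libraries and 338 to 400 FPKM in Sham libraries. Lyz2 had a log2 fold change of 0.59 ± 0.15 (SE) and did not pass (edgeR adjusted p = 0.0559). Of the 8 markers 5 were positive and 3 negative, with a median log2 fold change of 0.029. At the lower filter 4 of the 11 were positive and 7 negative, with a median of -0.043. Markers of T and NK cells, the usual sources of interferon gamma, summed to 0.607 to 2.13 FPKM in TAC libraries and 0.627 to 1.73 FPKM in Sham libraries, and 8 of the 12 had a mean under 0.1 FPKM. Dendritic cell markers summed to 0.403 to 1.31 FPKM in TAC libraries and 0.334 to 0.663 FPKM in Sham libraries, and monocyte and neutrophil markers to 4.22 to 5.16 FPKM in TAC libraries and 2.03 to 7.98 FPKM in Sham libraries, with Ly6g at 0 in every library. At 0.1 FPKM 1 of the 7 tested monocyte and neutrophil markers rose, against 2.76% of all genes called higher at this filter. It was the monocyte chemokine receptor Ccr2, with 1.27, 0.452 and 2.68 CPM in TAC libraries, against 0.173, 0.0985 and 0.0903 CPM in Sham libraries (edgeR log2 fold change 3.48 ± 0.68 SE, adjusted p = 0.0338). These Sham values are near the floor, so the size of the change is uncertain. The mean by which Ccr2 passed the filter came mostly from the TAC libraries. Of the 7 markers, 5 had positive and 2 negative log2 fold changes. Of the 2 B cell markers tested, 0 were called by edgeR or DESeq2 and 0 had an unadjusted p under 0.05, while 1 of 10 endothelial markers, Tek, and 2 of 8 fibroblast markers, Dcn and Lum, rose (edgeR adjusted p = 0.0445, 0.0323 and 0.0387), against 6.99% of all genes called at 1 FPKM. Tek did not pass at the lower filter (0.0618), nor Dcn and Lum with the GC and length trends removed (edgeR adjusted p = 0.102 and 0.0933). Endothelial markers summed to 185 to 268 FPKM in TAC libraries and 214 to 235 FPKM in Sham libraries. Fibroblast markers summed to 588 to 767 FPKM in TAC libraries and 710 to 785 FPKM in Sham libraries. At 1 FPKM 9 endothelial markers were positive and 1 negative, and 6 fibroblast markers were positive and 2 negative. The median log2 fold changes were 0.27 and 0.83. At an unadjusted p under 0.05 in edgeR 4 endothelial markers were higher and 1 lower, and 5 fibroblast markers were higher and 0 lower. DESeq2 called 3 of each list higher and 0 lower. With the GC and length trends removed 1 endothelial and 5 fibroblast markers were higher at an unadjusted p under 0.05 in edgeR, against 1135 of all 8795 genes. Blood markers summed to 1252 to 2588 FPKM in TAC libraries and 617 to 1921 FPKM in Sham libraries, with 0 of 5 called by edgeR, 2 by DESeq2 and 3 at an unadjusted p under 0.05 in edgeR, and a median log2 fold change of 0.99. Over all genes at 1 FPKM the edgeR, DESeq2 and unadjusted shares were 6.99%, 18.8% and 28.1%. The part of these cell types in the values of the interferon-stimulated genes was not tested.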

How the data were processed

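Poly(A) RNA of 6 left ventricle samples was sequenced from libraries that mark the second strand with dUTP, per the labels' protocols. The submitters' processing notes name cutadapt 1.9, HISAT2 2.0.4, StringTie 1.3.4d and the build GRCm38; the annotation, the strand setting and the origin of the count columns were not given in the sources used. The authors deposited FPKM (fragments scaled to transcript length and library depth) and estimated counts per gene and library, per the file headers. The estimated counts as deposited are whole numbers and sum to between 64023153 and 69992502 per library.

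Groups follow the labels. Whether the 6 samples are 6 mice is not stated in the labels, so the p-values reflect the spread among these samples only, and that spread may be technical. The genes, lists and tests were chosen with earlier results of these data known. All 30 genes are named; the most abundant gene of a role group, genes whose groups do not overlap, and called genes or the 2 most abundant of each list were given statistics first.

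Counts of the 8795 genes at or above a mean of 1 FPKM were tested with edgeR 4.0.16 (R 4.3.3; TMM scaling, glmQLFit and glmQLFTest) with p-values adjusted by Benjamini-Hochberg across every gene tested, and again for the 15003 genes at 0.1 FPKM or above. The SE is the log2 fold change divided by the root of the F statistic. Alternatives were DESeq2 1.42.0, limma 3.58.1 on log2(FPKM + 1) and log2(FPKM + 0.1), other scalings and filters, each library left out, a replicate block, and lowess trends (span 0.3, 3 rounds) over GC content and length of the longest GENCODE M21 transcript as offsets. The repeats of these at 0.1 FPKM were chosen after the data were seen. The scripts were tested on simulated data. Of the identifiers, 24547 were found in GENCODE M21 and 21089 had the same coordinates.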

Additional observations from a re-analysis of the deposited data

How the results depend on the processing

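Depth limits the low genes, since Gbp4 rests on 24 to 120 estimated counts per library, and estimated counts carry more error than counting alone. For all genes the 414 higher and 201 lower calls became 1031 and 617 in DESeq2, 163 and 122 with no filter, 174 and 338 in limma on log2(FPKM + 1), 170 and 336 on log2(FPKM + 0.1), 141 and 42 with the replicate block, and 90 and 41 with the block and the GC and length trends removed. With those trends alone removed, 238 genes were higher. Leaving out 1 library gave 9 to 813 higher and 3 to 892 lower genes. The causes were not tested.

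Of the 30 genes, 0 higher and 0 lower at 1 FPKM became 2 higher and 1 lower in DESeq2, and 2 higher with the filter at 0.1 FPKM or with filterByExpr, which test more genes. Leaving out 1 library gave 0 to 2 higher (Ifit3 and Gbp2 without Sham replicate 1) and 0 to 1 lower (Irf9 without TAC replicate 3). At 0.1 FPKM the 2 higher genes became 5 in DESeq2, with 2 lower, and 0 in limma, with the replicate block or with the trends removed. Leaving out 1 library gave 0 to 2 higher and 0 to 1 lower there.

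Fold changes near 0 changed sign. Under the 0.1 FPKM filter, filterByExpr, no filter, limma with 1 and limma with 0.1, the log2 fold change was -0.044, -0.045, -0.051, -0.064 and -0.086 for Oasl2, -0.010, -0.014, -0.016, -0.046 and -0.072 for Trim25, and -0.069, -0.068, -0.076, -0.11 and -0.12 for Bst2. These settings shifted the log2 fold changes of the 8795 genes by -0.10 to -0.15. Leaving out 1 library gave -0.19 to 0.20 for Bst2, -0.082 to 0.22 for Oasl2, -0.12 to 0.20 for Trim25, -0.34 to 0.19 for Igtp, -0.27 to 0.012 for Xaf1, -0.36 to 0.15 for Oas2 and -0.038 to 0.41 for Isg15.

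The labels do not say whether samples that share a replicate number were paired. Their deviations from the group means correlated at -0.0862, 0.134 and -0.0448 for numbers 1, 2 and 3. TAC replicate 3 correlated best with Sham replicate 1, at 0.233. With 3 libraries per group these correlations cannot tell whether samples were paired or shared a batch. With the replicate block the adjusted p of Rsad2 and Gbp4 was 0.0614 and 0.0725. A core 1 base longer was found in 13 of the 22 promoters (59.1%), against 3.99% of all genes.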
